A study of Homo sapiens with 16 samples.

Results

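The genes described here are 31 genes of fatty acid oxidation and ketone body metabolism, measured in the hepatocellular carcinoma (HCC) cell lines Huh7 and Hep3B and in their Sorafenib-resistant derivatives. They were chosen by name, and they are 31 of the 26258 genes of the deposited table. All 31 were found in the table, and all 31 passed the filter on low expression used for testing (1 CPM, a read count scaled to library size, or more in 2 or more libraries), as did 15019 genes in all. They comprise 8 genes of fatty acid entry (ACSL1, ACSL3, ACSL5, FABP1, PLIN2, CPT1A, CPT2 and SLC25A20), 4 mitochondrial acyl-CoA dehydrogenases, 5 genes of the hydratase, dehydrogenase and thiolase steps, 3 auxiliary enzymes, 3 genes of the electron transfer flavoprotein system, 6 peroxisomal genes, 1 ketone body enzyme (BDH1) and the transcription factor PPARA. Only BDH1 belongs to ketone body metabolism, so other genes of that pathway are described separately.

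Long-chain fatty acids are activated to acyl-CoA by the ACSL enzymes and bound in the cytosol of liver cells by FABP1. CPT1A transfers the acyl group to carnitine at the outer mitochondrial membrane, SLC25A20 carries the acylcarnitine across the inner membrane, and CPT2 restores the acyl-CoA in the matrix, where repeated rounds of dehydrogenation, hydration, dehydrogenation and thiolysis release acetyl-CoA. Very long-chain and branched fatty acids are shortened in peroxisomes, the liver converts acetyl-CoA to ketone bodies in fasting, and PPARA is the nuclear receptor known for activating many of these genes in hepatocytes.

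For each cell line, RNA of 4 groups was sequenced with 2 replicates each, giving 16 libraries. The parental cells and the cells labelled DMSO are given as untreated, the IR cells were raised in increasing concentrations of Sorafenib, a multikinase inhibitor, and the CR cells in a constantly high concentration. The labels give 7 μM Sorafenib in the culture of the IR and CR cells, so that continued exposure to the drug and resistance to it cannot be told apart in any comparison with untreated cells. The study's methods speak of biological triplicates, while the labels give 2 replicates a group. Neither source says whether replicates of a resistant line came from separate derivations, so the p-values measure the spread between these libraries, and each resistant line is treated as 1 derivation. IR and CR cells are compared with the same 2 parental libraries of their line, and the DMSO cells as well.

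Library size lay between 46613302 and 76860251 reads, at which 3 reads correspond to at most 0.0644 CPM, counting error only. The CPM of replicates, as log2(CPM + 1), correlated across genes with a Pearson's r of 0.987 to 0.998, lowest in Huh7 DMSO and highest in Hep3B DMSO cells. The Huh7-IR replicates were nearly as far apart, with an r of 0.988. Across 14596 genes the replicate difference went with transcript GC content most in Huh7 parental and Huh7 DMSO cells. Spearman's rho for replicate 1 minus replicate 2 was 0.53 and -0.51 there, as a description. Replicate 2 of Huh7 DMSO stood apart from replicate 1, with a summed level of 1250 against 452 CPM over 11 hypoxia-induced genes, and in Hep3B DMSO cells this sum was 601 in replicate 2 and 287 in replicate 1. The 10 hepatocyte markers, which define the cells the lines derive from, summed to 10700 and 16300 CPM in Huh7 parental, 22700 and 27800 in DMSO, 132 and 500 in IR and 1400 and 2830 in CR cells. In Hep3B they summed to 17200 and 21300 CPM in parental, 30300 and 36200 in DMSO, 3610 and 10400 in IR and 1350 and 2180 in CR cells. None of them was at 0 in any library, and 9, 7, 3 and 6 of the 10 were lower and 0, 0, 1 and 0 higher in the order of IR and CR cells of Huh7, then of Hep3B. Of the 8 mesenchymal markers, 6 passed the filter, of which 5, 5, 2 and 2 were higher and 1, 1, 1 and 0 lower in the same comparisons. Over all genes tested, 36%, 24.5%, 18.3% and 23.6% were higher there and 21.5%, 16.8%, 13.7% and 15.2% lower. THY1, a defining fibroblast marker, stayed at or below 0.0569 CPM in every library and the blood marker PTPRC at or below 1.32 CPM. The endothelial marker PECAM1 reached 4.4 CPM in replicate 2 of Huh7 DMSO. PTPRC and PECAM1 were both lower in the IR and CR cells of Huh7 than in parental cells. The part of these marker changes in the values below was not tested, and in bulk RNA fewer cells of a type and less RNA per cell cannot be told apart.

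Promoter sequences (250 bases before to 50 bases after a start site, RefSeq, GRCh38.p14) were on hand for 26 of the 31 members, in 37 windows. They were searched on both strands for a direct repeat of AGGTCA with 1 spacer base of any kind, the type of element that PPARA is known to bind with its partner RXR, with at most 2 mismatches at the 12 fixed positions. Such a match was found in 3 of the 37 member windows (8.11%), of ACAA2, ACSL1 and FABP1, and in 2.97% of all 35116 windows. The window of FABP1 is shown because this gene had the deepest fall, that of ACSL1 because 1 of its 5 windows held a match, and that of ACSL5 because this gene had the strongest rise. Capitals mark the matched bases, which lie on the strand opposite to the gene in both windows, and each sequence runs in the direction of its gene.
FABP1, chr2:88128013-88128312, minus strand: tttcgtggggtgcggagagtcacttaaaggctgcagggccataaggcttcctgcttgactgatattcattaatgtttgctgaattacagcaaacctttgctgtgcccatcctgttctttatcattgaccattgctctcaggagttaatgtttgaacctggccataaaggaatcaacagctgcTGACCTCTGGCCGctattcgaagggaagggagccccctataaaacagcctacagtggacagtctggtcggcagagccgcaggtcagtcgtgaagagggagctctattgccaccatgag
ACSL1, chr4:184805504-184805803, minus strand: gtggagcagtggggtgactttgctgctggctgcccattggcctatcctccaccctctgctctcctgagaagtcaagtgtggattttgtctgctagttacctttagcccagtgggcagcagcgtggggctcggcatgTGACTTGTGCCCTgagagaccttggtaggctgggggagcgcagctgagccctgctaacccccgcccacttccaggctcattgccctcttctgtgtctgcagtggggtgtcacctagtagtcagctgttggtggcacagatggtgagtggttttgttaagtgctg
ACSL5, chr10:112375018-112375317, plus strand: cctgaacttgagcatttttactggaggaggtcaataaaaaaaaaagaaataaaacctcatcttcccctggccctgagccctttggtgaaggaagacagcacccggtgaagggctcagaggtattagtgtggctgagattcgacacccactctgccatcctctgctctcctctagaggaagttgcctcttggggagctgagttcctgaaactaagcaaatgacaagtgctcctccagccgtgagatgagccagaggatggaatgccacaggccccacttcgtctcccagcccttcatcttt
The closest stretch in this ACSL5 window had 4 mismatches, and its other window had one with 3 mismatches, so that no capitals are shown. A match describes letters in the window and no binding was measured here.

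Relative to parental cells, more of the 31 genes were called lower than higher in every resistant line. In Hep3B-IR cells this was only 6 against 4, from which no direction is read. A gene is called here at an adjusted p under 0.05, and fold changes are on the log2(CPM + 1) scale, which understates the change of genes near 0. In Huh7-IR cells 18 members were lower and 3 higher, so that 21 of 31 were called, against 57.5% of all genes tested. In Huh7-CR cells 12 were lower and 2 higher (background 41.3% called). The Hep3B-IR cells had 6 lower and 4 higher (32% called), and the Hep3B-CR cells 12 lower and 5 higher (38.8% called). The share of all genes called lower was 21.5%, 16.8%, 13.7% and 15.2% in these comparisons, and the share called higher was 36%, 24.5%, 18.3% and 23.6%. The median log2 fold change of the 31 members was -0.67 in IR and -0.38 in CR cells of Huh7, and -0.26 and -0.22 in those of Hep3B, beside medians of 0.19, 0.07, 0.06 and 0.11 over all genes tested. With further scaling by TMM factors the median of all genes in Huh7-IR cells was 0.04, and 3 members were higher and 21 lower. Of the 15019 genes tested, 4451 were then higher and 4127 lower, against 5401 and 3234 without this scaling. Without replicate 2 of the Hep3B parental cells or replicate 1 of the Hep3B-IR cells, 5 or 4 members were called in Hep3B-IR cells, and without that parental library or replicate 1 of the Hep3B-CR cells 10 were called in Hep3B-CR cells.

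**Figure D1:**
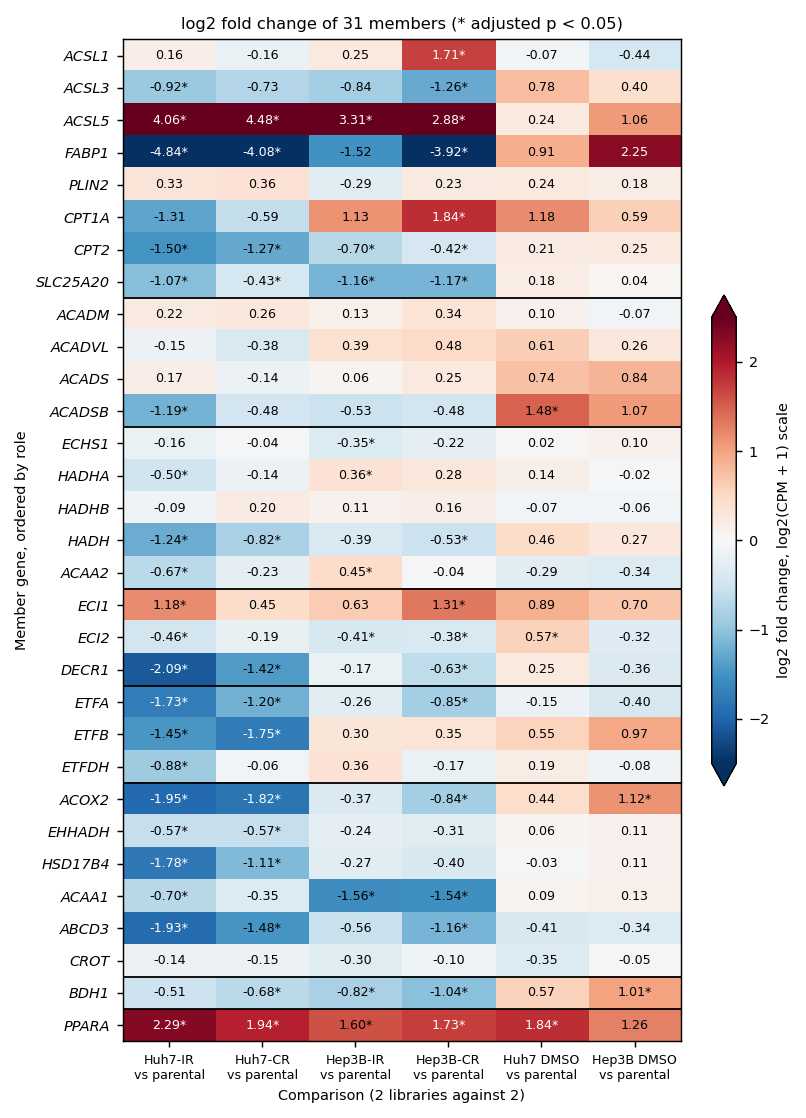
Log2 fold change of the 31 members (rows, grouped by role) against parental cells of the same line in 6 comparisons (columns), on the log2(CPM + 1) scale, with asterisks for an adjusted p under 0.05. The color scale ends at 2.5 in either direction. ACSL5 and PPARA are red in all 4 resistant columns, and CPT2 and SLC25A20 are blue in all 4.

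In total, 2 members were lower in all 4 resistant comparisons, CPT2 and SLC25A20, and 2 were higher in all 4, PPARA and ACSL5, while 3.87% and 6.45% of all genes tested were so called. In both Huh7 lines 11 members were lower, and in both Hep3B lines 5. The share of all genes lower in both lines was not computed. It cannot exceed the smaller single share, 16.8% in Huh7 and 13.7% in Hep3B. PLIN2, ACADM, ACADVL, ACADS, HADHB and CROT (6 members) were called in none of the 4. HADHA and ACAA2 (2 members) were lower in Huh7-IR and higher in Hep3B-IR cells. For this count and the one before it no share over all genes was computed, so nothing is read from them. The summed level of the 31 members, which is set mostly by the abundant genes, was 2950 and 3070 CPM in Huh7 parental, 3320 and 3940 in DMSO, 1820 and 1800 in IR and 2000 and 2200 in CR cells. In Hep3B the sum was 3240 and 3560 CPM in parental, 3580 and 3880 in DMSO, 2710 and 3230 in IR and 2820 and 3150 in CR cells. The sums of Huh7 resistant and parental cells did not overlap, and in Hep3B the highest resistant library (3230 CPM) lay just below the lowest parental one (3240 CPM). Over all genes tested, the 2 resistant and 2 parental libraries of a comparison did not overlap for 77.1% and 77.5% in Huh7 (IR, CR) and 73.7% and 76.6% in Hep3B.

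PPARA, the ligand-activated receptor of the pathway (gene ID 5465, chr22:46546424-46639652 on the plus strand of GRCh37), was higher in all resistant cells than in parental cells. PPARA was at 11.2 and 8.68 CPM in parental, 20.0 and 71.3 in DMSO, 70.7 and 38.8 in IR, and 40 and 41.4 in CR cells of Huh7. Hep3B cells held PPARA at 17.5 and 13 CPM in parental, 31.9 and 44.1 in DMSO, 50.3 and 45.4 in IR, and 42.4 and 64.2 in CR cells. All 8 resistant libraries lay above all 4 parental ones, and the 4 DMSO libraries lay above them as well. In Huh7 the change was 2.29 ± 0.46 (SE, adjusted p = 0.00102) in IR and 1.94 ± 0.46 (SE, adjusted p = 0.00491) in CR cells. In Hep3B it was 1.60 ± 0.46 (SE, adjusted p = 0.018) in IR and 1.73 ± 0.46 (SE, adjusted p = 0.0103) in CR cells. Against the DMSO cells of the line, PPARA was not called in any resistant line, with log2 fold changes of 0.45, 0.10, 0.34 and 0.47 and adjusted p-values of 0.422, 0.887, 0.602 and 0.452. The Hep3B-IR call was also lost without Hep3B parental 2, IR 1 or IR 2 (1.40 to 1.67, adjusted p = 0.0601 to 0.122) and the Hep3B-CR call without Hep3B parental 2 or CR 2 (1.52 and 1.43, adjusted p = 0.0794 and 0.0851).

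Among the long-chain acyl-CoA synthetases, ACSL5 appeared in the resistant cells from a level near 0. ACSL5 (gene ID 51703, chr10:114133874-114188137 on the plus strand of GRCh37) is the family member known from intestine and liver. ACSL5 was at 0.582 and 0.0938 CPM in parental, 0.152 and 1.11 in DMSO, 17.6 and 24.9 in IR, and 27.9 and 28.7 in CR cells of Huh7. Hep3B cells held ACSL5 at 0.323 and 0.338 CPM in parental, 1.04 and 2.77 in DMSO, 9.19 and 16.1 in IR, and 10.8 and 7.08 in CR cells. The 2 Huh7 parental libraries held 40 and 7 reads of it, and those of Huh7-IR 1061 and 1159 reads. Each resistant library lay above every parental and DMSO library, with log2 fold changes of 4.06 ± 0.37 (SE, adjusted p = 3.5e-06) in IR and 4.48 ± 0.37 (SE, adjusted p = 2.8e-06) in CR cells of Huh7. In Hep3B they were 3.31 ± 0.37 (SE, adjusted p = 4.9e-05) and 2.88 ± 0.37 (SE, adjusted p = 0.000116). These 4 calls were kept under all alternatives tried, with the DMSO cells as reference included.

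ACSL1, the main isozyme of liver and a known PPARA target, rose in Hep3B-CR cells, and against DMSO cells also in Hep3B-IR cells (0.69, adjusted p = 0.0323). ACSL1 was at 39.0 and 42.9 CPM in parental, 36.7 and 41.3 in DMSO, 53.1 and 39.3 in IR, and 40 and 33.2 in CR cells of Huh7. Hep3B cells held ACSL1 at 34.7 and 38.6 CPM in parental, 30.1 and 23.8 in DMSO, 57.2 and 33.5 in IR, and 133 and 112 in CR cells. The 2 Hep3B-CR libraries stood above the 14 others, with a log2 fold change of 1.71 ± 0.23 (SE, adjusted p = 0.000156) against parental and of -1.46 ± 0.23 (SE, adjusted p = 0.00183) for IR against CR cells. ACSL3, an isozyme of the endoplasmic reticulum and lipid droplets, fell in Huh7-IR (-0.92, adjusted p = 0.0365) and Hep3B-CR cells (-1.26, adjusted p = 0.0124), and the other values were -0.73 in Huh7-CR and -0.84 in Hep3B-IR cells, which were called against DMSO cells (-1.51 and -1.24, adjusted p = 0.00408 and 0.0136). The ACSL3 call in Huh7-IR cells was lost without Huh7 parental 2 or IR 2 (-0.63 and -0.70, adjusted p = 0.243 and 0.183), and the Hep3B-CR call without Hep3B parental 2 or CR 1 (-0.96 and -0.88, adjusted p = 0.12 and 0.126).

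The make-up of the ACSL family was compared within each library as CPM per kilobase of all annotated exons, which may overstate the length of the transcripts present. ACSL4 and ACSL6, which are not among the 31 members, were included. The share of ACSL5 in the summed level per length was 0.0269% to 0.271% in Huh7 parental and 11.2% to 16.9% in the 4 Huh7 resistant libraries, and 0.055% to 0.0866% in Hep3B parental and 3.23% to 5.75% in the 4 Hep3B resistant libraries. ACSL4, the isozyme known for arachidonate, took 50.1% and 56.6% in Huh7 parental and 29.9% to 41.5% in Huh7 resistant cells, and 54% and 58.7% in Hep3B parental and 18.6% to 34.1% in Hep3B resistant cells. ACSL1 took 43.5% and 32.5% in the Hep3B-CR libraries, and 5.91% and 4.01% in Hep3B parental cells.

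**Figure D2:**
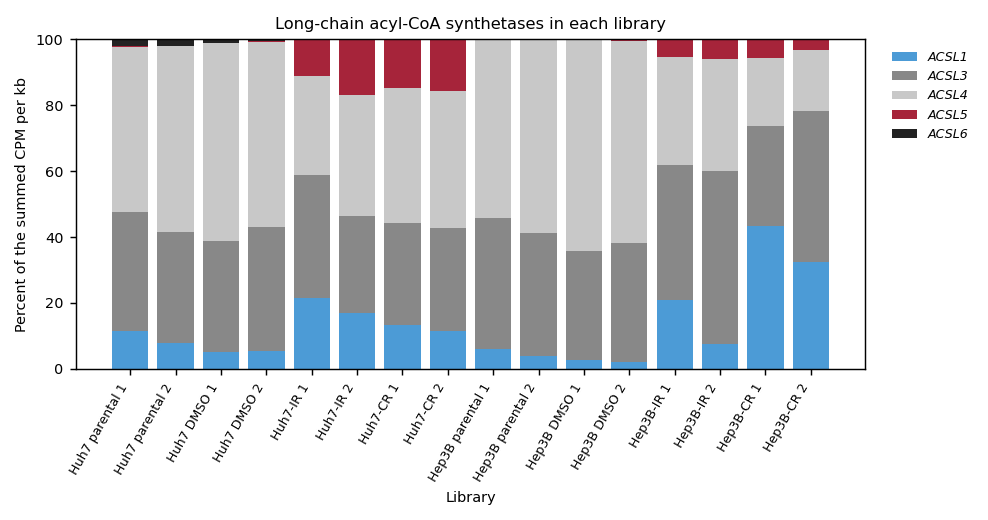
Share of each of 5 long-chain acyl-CoA synthetases in their summed CPM per kilobase of exon, in percent (vertical axis), for each of the 16 libraries (horizontal axis). The dark red part, ACSL5, is at most 0.393% in the 8 parental and DMSO libraries and at least 3.23% in the 8 resistant ones, while the light gray part, ACSL4, is smaller in the resistant libraries.

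FABP1, the fatty acid binding protein of hepatocytes (gene ID 2168, chr2:88422501-88427581 on the minus strand of GRCh37), was nearly lost from 3 of the 4 resistant lines. FABP1 was at 26.0 and 33.3 CPM in parental, 24.3 and 127 in DMSO, 0.0332 and 0.0858 in IR, and 0.541 and 1.10 in CR cells of Huh7. Hep3B cells held FABP1 at 16.4 and 23.4 CPM in parental, 63.7 and 148 in DMSO, 1.51 and 19.5 in IR, and 0.159 and 0.590 in CR cells. The Huh7-IR libraries held 2 and 4 reads of FABP1 where the parental ones held 1789 and 2484, and the Hep3B-CR libraries held 12 and 31 reads where the parental ones held 1219 and 1662. FABP1 changed by -4.84 ± 0.85 (SE, adjusted p = 0.000416) in Huh7-IR, -4.08 ± 0.85 (SE, adjusted p = 0.00227) in Huh7-CR and -3.92 ± 0.85 (SE, adjusted p = 0.00327) in Hep3B-CR cells. The 2 Hep3B-IR libraries differed, at 1.51 and 19.5 CPM, and the change there was not called (-1.52, adjusted p = 0.198), but it was without IR 2 (-3.04, adjusted p = 0.0133) and against DMSO cells (-3.77, adjusted p = 0.00398). The same 2 libraries held the hepatocyte markers at 3610 and 10400 CPM, and the part of the marker change in FABP1 was not tested.

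PLIN2, the coat protein of lipid droplets, did not pass the test in any resistant line. PLIN2 was at 151 and 172 CPM in parental, 117 and 312 in DMSO, 263 and 156 in IR, and 199 and 217 in CR cells of Huh7. Hep3B cells held PLIN2 at 534 and 627 CPM in parental, 570 and 754 in DMSO, 383 and 585 in IR, and 653 and 708 in CR cells. Its log2 fold changes against parental cells lay between -0.29 in Hep3B-IR and 0.36 in Huh7-CR cells, with adjusted p-values of at least 0.478.

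Of the carnitine shuttle, CPT2 and SLC25A20 fell in all 4 resistant lines, and CPT1A, the rate-limiting step, did not. CPT2 (gene ID 1376, chr1:53662464-53679869 on the plus strand of GRCh37), the carnitine palmitoyltransferase of the matrix side, was at 42.1 and 43.2 CPM in parental, 46.8 and 52.3 in DMSO, 13.4 and 15.5 in IR, and 16.6 and 17.7 in CR cells of Huh7. Hep3B cells held CPT2 at 32.2 and 27.9 CPM in parental, 36.8 and 34.9 in DMSO, 16.7 and 19.5 in IR, and 20.1 and 24.3 in CR cells. The resistant libraries of each line lay below the parental and DMSO ones without overlap. In Huh7 the change was -1.50 ± 0.15 (SE, adjusted p = 6.8e-06) in IR and -1.27 ± 0.15 (SE, adjusted p = 4.5e-05) in CR cells. In Hep3B it was -0.70 ± 0.15 (SE, adjusted p = 0.00392) in IR and -0.42 ± 0.15 (SE, adjusted p = 0.0433) in CR cells. The Hep3B-CR call was lost without Hep3B parental 1 or 2 or CR 1 (-0.32, -0.52 and -0.29, adjusted p = 0.227, 0.0701 and 0.262) and with a correction for GC content (-0.38, adjusted p = 0.0843).

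SLC25A20 (gene ID 788, chr3:48894359-48936337 on the minus strand of GRCh37), the carnitine-acylcarnitine carrier, was at 40.4 and 52.8 CPM in parental, 48.7 and 56.8 in DMSO, 21.3 and 21.5 in IR, and 31.1 and 37.0 in CR cells of Huh7. Hep3B cells held SLC25A20 at 23.2 and 21.2 CPM in parental, 24.3 and 21.3 in DMSO, 9.13 and 9.62 in IR, and 9.33 and 9.25 in CR cells. Again no resistant library reached the level of the parental and DMSO cells of its line. In Huh7 the change was -1.07 ± 0.16 (SE, adjusted p = 0.000152) in IR and -0.43 ± 0.16 (SE, adjusted p = 0.0495) in CR cells. In Hep3B it was -1.16 ± 0.16 (SE, adjusted p = 0.000243) in IR and -1.17 ± 0.16 (SE, adjusted p = 0.000193) in CR cells. The Huh7-CR call was lost without Huh7 parental 2, CR 1 or CR 2 (-0.25, -0.31 and -0.56, adjusted p = 0.362, 0.284 and 0.0577).

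CPT1A (gene ID 1374, chr11:68522088-68611878 on the minus strand of GRCh37) was at 79.0 and 51.7 CPM in parental, 109 and 195 in DMSO, 57.6 and 10.7 in IR, and 40.4 and 44.2 in CR cells of Huh7. Hep3B cells held CPT1A at 54.4 and 36.8 CPM in parental, 72.0 and 64.0 in DMSO, 104 and 93.9 in IR, and 163 and 163 in CR cells. It rose in Hep3B-CR cells, with a log2 fold change of 1.84 ± 0.54 (SE, adjusted p = 0.0174), and the value in Hep3B-IR cells was 1.13, adjusted p = 0.134. The 2 Huh7-IR libraries stood far apart, the higher inside and the lower below the range of the parental cells, and the change was -1.31, adjusted p = 0.0539, and -2.47 (adjusted p = 0.000131) without IR 1. The fall in Huh7-IR cells was also called against DMSO cells (-2.49, adjusted p = 0.00195), with DESeq2 (-1.15, adjusted p = 0.0363) and with TMM factors, quantile normalization or a GC correction (-1.50 to -1.51, adjusted p = 0.0241 to 0.0326). In Huh7-CR cells it was -0.59, adjusted p = 0.42, and -1.76 (adjusted p = 0.0198) against DMSO cells. The Hep3B-IR value was called with only the Hep3B libraries (1.13, adjusted p = 0.00295). The Hep3B-CR call was lost without Hep3B parental 2, CR 1 or CR 2 (1.57, 1.84 and 1.84, adjusted p = 0.12, 0.0734 and 0.0729) and against DMSO cells (1.25, adjusted p = 0.0836).

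**Figure D3:**
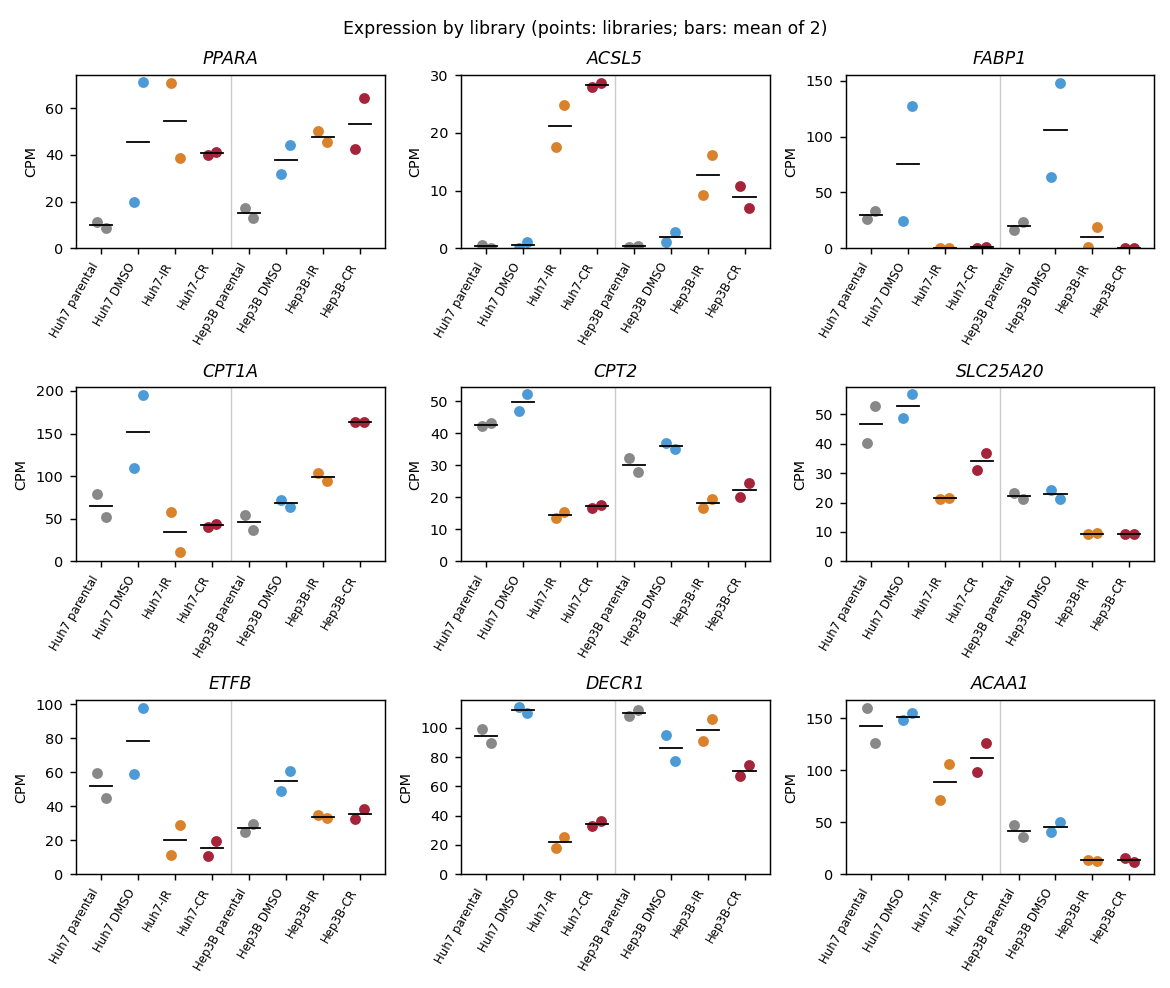
CPM (vertical axis, from 0) of 9 members in the 8 groups (horizontal axis), with a point for each library and a bar for the mean of 2. CPT2 and SLC25A20 are lower in the IR and CR cells of both lines, ETFB lies between 10.7 and 28.9 CPM in the Huh7 resistant and between 32.2 and 38.3 CPM in the Hep3B resistant libraries, and CPT1A is highest in Hep3B-CR among the Hep3B cells.

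The 4 mitochondrial acyl-CoA dehydrogenases, which catalyze the first step of each round, were seldom called against parental cells, and more often against DMSO cells. Over all genes tested, 57.5% and 41.3% were called in IR and CR cells of Huh7, and 32% and 38.8% in those of Hep3B. Of the 4 dehydrogenases, ACADSB, the enzyme of short branched chains, fell in Huh7-IR cells (-1.19, adjusted p = 0.00248). No call was made for it in the other 3 lines, where its log2 fold changes lay between -0.53 and -0.48. ACADSB stood at 124 and 145 CPM in Huh7 DMSO and 43.8 and 51.6 CPM in Huh7 parental cells, so that the DMSO cells held the highest levels. Against DMSO cells ACADSB was called lower in those 3 lines too, at -1.96 (adjusted p = 0.00012) for CR cells of Huh7, and at -1.61 and -1.55 (adjusted p = 0.000628 and 0.000756) for IR and CR cells of Hep3B. Against parental cells it was called in Hep3B-IR cells with the replicate block (-0.53, adjusted p = 0.0413) and in Hep3B-CR cells without CR 2 (-0.93, adjusted p = 0.0219). ACADM, ACADVL and ACADS, for medium, very long and short chains, were not called against parental cells. ACADS, the least abundant, stayed between 3.66 and 14.6 CPM over the 16 libraries. The log2 fold changes of ACADM lay between 0.13 and 0.34 and those of ACADVL between -0.38 and 0.48. With a correction for GC content ACADVL was called lower in Huh7-IR (-0.61, adjusted p = 0.0096) and Huh7-CR cells (-0.49, adjusted p = 0.0355), as it was against DMSO cells (-0.76 and -0.98, adjusted p = 0.0201 and 0.00697).

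Of the 5 genes of the hydratase, hydroxyacyl-CoA dehydrogenase and thiolase steps, 3 fell in Huh7-IR, 1 in Huh7-CR and 1 in Hep3B-CR cells. In Hep3B-IR cells 2 rose and 1 fell. Over all genes tested, 21.5% were lower in Huh7-IR, 16.8% in Huh7-CR and 15.2% in Hep3B-CR cells. In Hep3B-IR cells 18.3% of all genes were higher and 13.7% lower. HADH, the dehydrogenase of short and medium chains, fell in Huh7-IR (-1.24, adjusted p = 6.5e-05) and Huh7-CR cells (-0.82, adjusted p = 0.00213), and likewise in CR cells of Hep3B (-0.53, adjusted p = 0.0264). The Hep3B-CR call of HADH was lost without Hep3B parental 1 or 2 or CR 1 (-0.57, -0.49 and -0.38, adjusted p = 0.0725, 0.131 and 0.186). ECHS1, the enoyl-CoA hydratase of short chains, was called lower in Hep3B-IR cells (-0.35, adjusted p = 0.027), and that call was lost without any 1 of the 4 libraries compared (-0.31 to -0.40, adjusted p = 0.0674 to 0.144). ECHS1 was not called in the other 3 lines, but with edgeR, DESeq2, TMM factors or a GC correction it was called lower in Huh7-IR (-0.35 to -0.46, adjusted p = 0.00313 to 0.0252) and Hep3B-CR cells (-0.34 to -0.44, adjusted p = 0.00747 to 0.0401).

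HADHA and HADHB encode the subunits of the mitochondrial trifunctional protein and lie head to head on chromosome 2 (chr2:26413504-26467540 on the minus and chr2:26466038-26513333 on the plus strand of GRCh37), with overlapping spans, and the strand setting of the counting is unclear. HADHA was at 230 and 236 CPM in parental, 232 and 283 in DMSO, 164 and 165 in IR, and 204 and 220 in CR cells of Huh7. Hep3B cells held HADHA at 135 and 136 CPM in parental, 133 and 133 in DMSO, 183 and 164 in IR, and 151 and 179 in CR cells. HADHA fell in Huh7-IR cells (-0.50 ± 0.12 SE, adjusted p = 0.00455) and rose in Hep3B-IR cells (0.36 ± 0.12 SE, adjusted p = 0.0446). The latter call was lost without any 1 of the 4 libraries compared (0.28 to 0.44, adjusted p = 0.0649 to 0.249) and with TMM factors (0.30, adjusted p = 0.0994). HADHB stayed between 103 and 174 CPM over all 16 libraries and was not called in any resistant line, with log2 fold changes between -0.09 and 0.20. The ratio of HADHA to HADHB CPM within a library was 1.56 and 1.68 in Huh7 parental and 1.20 to 1.30 in the 4 Huh7 resistant libraries, and 1.18 and 1.23 in Hep3B parental and 1.28 to 1.59 in the 4 Hep3B resistant libraries. The ratio thus moved down in Huh7 and up in Hep3B relative to parental cells, with no overlap in either line, while in DMSO cells it was 1.64 and 2.11 in Huh7 and 1.19 and 1.29 in Hep3B.

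ACAA2, the mitochondrial thiolase, was at 116 and 112 CPM in parental, 95.3 and 92.0 in DMSO, 65.5 and 78.5 in IR, and 93.0 and 102 in CR cells of Huh7. Hep3B cells held ACAA2 at 130 and 117 CPM in parental, 101 and 93.5 in DMSO, 175 and 162 in IR, and 128 and 113 in CR cells. It fell in Huh7-IR cells (-0.67 ± 0.12 SE, adjusted p = 0.000639) and rose in Hep3B-IR cells (0.45 ± 0.12 SE, adjusted p = 0.0152). The Hep3B-IR call was lost without Hep3B parental 2 or IR 1 (0.37 and 0.40, adjusted p = 0.125 and 0.107).

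The 3 auxiliary enzymes act on double bonds of unsaturated fatty acids, and they moved in different directions. DECR1, the dienoyl-CoA reductase, was at 99.3 and 89.3 CPM in parental, 114 and 110 in DMSO, 17.8 and 25.6 in IR, and 33.1 and 36.0 in CR cells of Huh7. Hep3B cells held DECR1 at 108 and 112 CPM in parental, 95.2 and 77.4 in DMSO, 90.8 and 106 in IR, and 67.0 and 74.6 in CR cells. The 4 Huh7 resistant libraries stood below every other library, and the log2 fold change was -2.09 ± 0.17 (SE, adjusted p = 1.1e-06) in Huh7-IR, -1.42 ± 0.17 (SE, adjusted p = 3.9e-05) in Huh7-CR and -0.63 ± 0.17 (SE, adjusted p = 0.0102) in Hep3B-CR cells. The Hep3B-CR call of DECR1 was lost without Hep3B parental 2 or CR 1 (-0.61 and -0.56, adjusted p = 0.0633 and 0.0738) and against DMSO cells (-0.28, adjusted p = 0.213). ECI1, an enoyl-CoA isomerase, rose in Huh7-IR (1.18, adjusted p = 0.00399) and Hep3B-CR cells (1.31, adjusted p = 0.00373), calls that were lost against DMSO cells (0.29 and 0.62, adjusted p = 0.423 and 0.112). ECI2, the isomerase shared with peroxisomes, fell by small amounts in Huh7-IR (-0.46, adjusted p = 0.0134), Hep3B-IR (-0.41, adjusted p = 0.041) and Hep3B-CR cells (-0.38, adjusted p = 0.0458). Each of these 3 calls of ECI2 was lost without at least 2 of the 4 libraries compared (-0.25 to -0.48, adjusted p = 0.0641 to 0.296).

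The electron transfer flavoprotein system passes electrons from the acyl-CoA dehydrogenases to the respiratory chain. In Huh7, 3 of 3 genes were lower in IR and 2 of 3 in CR cells (21.5% and 16.8% of all genes), and in Hep3B 0 of 3 and 1 of 3 (13.7% and 15.2%). ETFA, the alpha subunit, was at 317 and 338 CPM in parental, 287 and 303 in DMSO, 98.8 and 97.7 in IR, and 142 and 142 in CR cells of Huh7. Hep3B cells held ETFA at 309 and 305 CPM in parental, 242 and 222 in DMSO, 254 and 260 in IR, and 174 and 167 in CR cells. The log2 fold change of ETFA was -1.73 ± 0.10 (SE, adjusted p = 8.7e-08) in Huh7-IR, -1.20 ± 0.10 (SE, adjusted p = 2.3e-06) in Huh7-CR and -0.85 ± 0.10 (SE, adjusted p = 5.3e-05) in Hep3B-CR cells, with IR below CR in Huh7 and above CR in Hep3B. In Hep3B-IR cells it was -0.26, adjusted p = 0.0642, and it was called there with TMM factors (-0.32, adjusted p = 0.0372).

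ETFB, the beta subunit, was at 59.6 and 44.8 CPM in parental, 59.0 and 98.1 in DMSO, 11.5 and 28.9 in IR, and 10.7 and 19.8 in CR cells of Huh7. Hep3B cells held ETFB at 25.1 and 29.8 CPM in parental, 48.9 and 60.5 in DMSO, 34.9 and 32.8 in IR, and 32.2 and 38.3 in CR cells. The 4 Huh7 resistant libraries lay below the Huh7 parental ones. In Hep3B the resistant libraries lay above the parental ones, without a call, and below both DMSO ones. ETFB changed by -1.45 ± 0.38 (SE, adjusted p = 0.00578) in Huh7-IR and -1.75 ± 0.38 (SE, adjusted p = 0.00287) in Huh7-CR cells, and the Huh7-IR call was lost without IR 1 (-0.82, adjusted p = 0.0696). ETFDH, the dehydrogenase that hands the electrons to ubiquinone, was at 20.2 and 22.6 CPM in parental, 26.2 and 23.0 in DMSO, 11.5 and 10.7 in IR, and 20.3 and 20.6 in CR cells of Huh7. Hep3B cells held ETFDH at 25.4 and 23.0 CPM in parental, 23.7 and 21.9 in DMSO, 32.0 and 30.5 in IR, and 18.8 and 24.4 in CR cells. It fell in Huh7-IR cells (-0.88 ± 0.16 SE, adjusted p = 0.000447), and in Huh7-CR cells the level overlapped that of parental cells (-0.06, adjusted p = 0.803).

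Of the 6 peroxisomal genes, 5 fell in IR and 4 in CR cells of Huh7, 1 and 3 fell in those of Hep3B, and none rose. Over all genes tested, 21.5%, 16.8%, 13.7% and 15.2% were lower in this order, and 36%, 24.5%, 18.3% and 23.6% higher. ABCD3, the transporter that imports fatty acids into peroxisomes, was at 365 and 396 CPM in parental, 365 and 223 in DMSO, 80.6 and 122 in IR, and 122 and 151 in CR cells of Huh7. Hep3B cells held ABCD3 at 324 and 328 CPM in parental, 275 and 240 in DMSO, 216 and 227 in IR, and 141 and 149 in CR cells. ABCD3 changed by -1.93 ± 0.22 (SE, adjusted p = 2.0e-05) in Huh7-IR, -1.48 ± 0.22 (SE, adjusted p = 0.000253) in Huh7-CR and -1.16 ± 0.22 (SE, adjusted p = 0.0016) in Hep3B-CR cells, and the value in Hep3B-IR cells was -0.56, adjusted p = 0.0765. HSD17B4, the bifunctional enzyme of branched and very long chains, was at 232 and 253 CPM in parental, 244 and 231 in DMSO, 70.2 and 69.7 in IR, and 94.0 and 133 in CR cells of Huh7. Hep3B cells held HSD17B4 at 157 and 192 CPM in parental, 195 and 180 in DMSO, 129 and 160 in IR, and 127 and 136 in CR cells. It fell in Huh7-IR (-1.78 ± 0.16 SE, adjusted p = 3.7e-06) and Huh7-CR cells (-1.11 ± 0.16 SE, adjusted p = 0.000232), while the Hep3B values were -0.27, adjusted p = 0.24 for IR, and -0.40, adjusted p = 0.0727 for CR.

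ACAA1, the peroxisomal thiolase, was at 160 and 126 CPM in parental, 148 and 155 in DMSO, 71.3 and 106 in IR, and 97.9 and 126 in CR cells of Huh7. Hep3B cells held ACAA1 at 47.0 and 36.0 CPM in parental, 40.7 and 50.1 in DMSO, 14.0 and 12.5 in IR, and 15.4 and 11.7 in CR cells. Its fall was called deeper in Hep3B than in Huh7 by the difference between the lines (1.03 for Huh7 minus Hep3B), and in Hep3B the log2 fold change was -1.56 ± 0.22 (SE, adjusted p = 0.000258) in IR and -1.54 ± 0.22 (SE, adjusted p = 0.000241) in CR cells. In Huh7-IR cells it was -0.70 ± 0.22 (SE, adjusted p = 0.017), a call that was lost without Huh7 parental 1 or IR 1 (-0.53 and -0.42, adjusted p = 0.128 and 0.162). EHHADH, the bifunctional enzyme known as a PPARA target, was at 26.5 and 26.3 CPM in parental, 26.8 and 28.4 in DMSO, 16.4 and 18.5 in IR, and 16.7 and 18.4 in CR cells of Huh7. Hep3B cells held EHHADH at 29.9 and 24.8 CPM in parental, 30.6 and 28.5 in DMSO, 26.4 and 19.8 in IR, and 21.5 and 22.0 in CR cells. It fell by like amounts in Huh7-IR (-0.57 ± 0.16 SE, adjusted p = 0.00912) and Huh7-CR cells (-0.57 ± 0.16 SE, adjusted p = 0.0144). The latter call was lost without Huh7 parental 1 or 2 or CR 1 (-0.56, -0.57 and -0.50, adjusted p = 0.0625, 0.0618 and 0.0978).

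ACOX2, the oxidase of branched fatty acids and bile acid intermediates, was at 2.55 and 3.68 CPM in parental, 4.32 and 4.71 in DMSO, 0.0497 and 0.0644 in IR, and 0.0927 and 0.222 in CR cells of Huh7. Hep3B cells held ACOX2 at 1.21 and 1.83 CPM in parental, 3.85 and 5.09 in DMSO, 0.669 and 1.24 in IR, and 0.238 and 0.571 in CR cells. Both Huh7-IR libraries held 3 reads of ACOX2, which is the floor of detection, where the parental libraries held 175 and 275 reads. It fell in Huh7-IR (-1.95 ± 0.21 SE, adjusted p = 1.3e-05), Huh7-CR (-1.82 ± 0.21 SE, adjusted p = 3.8e-05) and Hep3B-CR cells (-0.84 ± 0.21 SE, adjusted p = 0.00813). The last call was lost without Hep3B parental 2 or CR 1 (-0.66 and -0.67, adjusted p = 0.0844 and 0.078). CROT, the peroxisomal carnitine octanoyltransferase, was not called in any resistant line, with log2 fold changes between -0.30 and -0.10.

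BDH1, the mitochondrial dehydrogenase that interconverts acetoacetate and hydroxybutyrate, was a low transcript in both lines. BDH1 was at 0.757 and 0.656 CPM in parental, 1.61 and 1.47 in DMSO, 0.166 and 0.236 in IR, and 0.0155 and 0.118 in CR cells of Huh7. Hep3B cells held BDH1 at 1.21 and 1.62 CPM in parental, 2.78 and 5.20 in DMSO, 0.214 and 0.526 in IR, and 0.185 and 0.152 in CR cells. The 8 resistant libraries, at 1 to 37 reads, lay below the parental libraries of their line, at 49 to 115 reads, and the DMSO libraries lay above these. The change in Huh7 was -0.51 ± 0.21 (SE, adjusted p = 0.0519) in IR cells, which was not called, and -0.68 ± 0.21 (SE, adjusted p = 0.0196) in CR cells. The Hep3B values were -0.82 ± 0.21 (SE, adjusted p = 0.00934) in IR and -1.04 ± 0.21 (SE, adjusted p = 0.00196) in CR cells. By edgeR on the recovered reads, BDH1 was also called in Huh7-IR cells (-2.01, adjusted p = 0.0147). The Huh7-CR call was lost without any 1 of the 4 libraries compared (-0.61 to -0.75, adjusted p = 0.0505 to 0.112) and the Hep3B-IR call without Hep3B parental 2 or IR 1 (-0.70 and -0.66, adjusted p = 0.0834 and 0.0936).

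The lines differed in how these genes changed. Their change from parental cells, as the mean of IR and CR, was set against each other for the 2 lines in an interaction contrast, which called 13 of 31 members (31.6% of all genes tested). The change was lower in Huh7 for 12 and higher for 1, beside 14.2% and 17.4% of all genes in these directions. The median difference of the members was -0.33, and that of all genes 0.05. The largest difference among the 13 was that of CPT1A, whose mean change was -0.95 in Huh7 and 1.48 in Hep3B, a difference of -2.43 ± 0.66 (SE, adjusted p = 0.0146). It was lost without Huh7 parental 1 or Hep3B parental 2 (-2.13 and -2.16, adjusted p = 0.0701 and 0.0695). ETFB followed, with mean changes of -1.60 and 0.32 and a difference of -1.92 ± 0.46 (SE, adjusted p = 0.0077). DECR1 differed by -1.35 ± 0.20 (SE, adjusted p = 0.000433), ACOX2 by -1.28 ± 0.26 (SE, adjusted p = 0.00307) and HSD17B4 by -1.11 ± 0.20 (SE, adjusted p = 0.00151). Each had a deeper fall from parental cells in Huh7. Hep3B cells held ACOX2 at 3.85 and 5.09 CPM in DMSO and 1.21 and 1.83 in parental cells, so the size of its difference depends on the reference. ETFA differed by -0.91 ± 0.12 (SE, adjusted p = 0.00017) and CPT2 by -0.82 ± 0.19 (SE, adjusted p = 0.00531). ACSL1, whose mean change was 0.98 in Hep3B, differed by -0.98 ± 0.28 (SE, adjusted p = 0.0197), and was not called without Huh7 parental 2 or Hep3B parental 1 (-0.92 and -0.91, adjusted p = 0.0788 and 0.0827). HADHA and ACAA2, which were lower in Huh7 and higher in Hep3B on average, differed by -0.64 ± 0.15 (SE, adjusted p = 0.0076) and -0.65 ± 0.15 (SE, adjusted p = 0.00634).

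ACAA1 was the member with the opposite sign, with a mean change of -0.53 in Huh7 and -1.55 in Hep3B and a difference of 1.03 ± 0.27 (SE, adjusted p = 0.013), lost without Huh7 parental 2 or Hep3B parental 1 (0.86 and 0.84, adjusted p = 0.0752 and 0.0787). The differences of ABCD3 (-0.85 ± 0.27 SE, adjusted p = 0.033) and ETFDH (-0.57 ± 0.19 SE, adjusted p = 0.0396) were each lost in 9 of the 12 fits that left out 1 library (adjusted p of the lost calls 0.05 to 0.114 for ABCD3 and 0.0597 to 0.151 for ETFDH). For FABP1, ACSL5, PPARA and SLC25A20 the difference between the lines was -1.74, adjusted p = 0.227, 1.17, adjusted p = 0.0701, 0.45, adjusted p = 0.574, and 0.41, adjusted p = 0.14, so that it was not detected. That of ACSL5 was called with DMSO cells as reference (1.99, adjusted p = 0.00554) and without Hep3B-IR 2 (1.36, adjusted p = 0.0461), and that of FABP1 without Hep3B-IR 1 (-2.50, adjusted p = 0.0335).

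**Figure D4:**
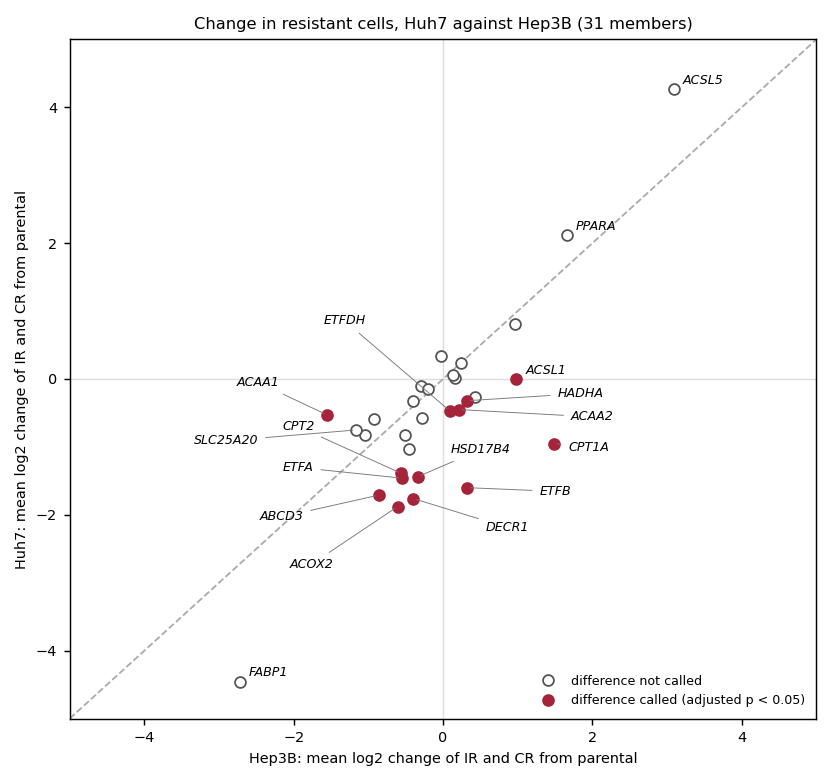
Log2 change from parental cells, as the mean of IR and CR, in Huh7 (vertical axis) against that in Hep3B (horizontal axis) for the 31 members, on the log2(CPM + 1) scale, with filled points for members whose difference between the lines had an adjusted p under 0.05. The dashed line marks equal change. Of the 13 filled points, 12 lie below the line and ACAA1 above it.

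The 2 ways of selecting resistant cells were compared directly. In Huh7, 6 members were lower in IR than in CR cells and 0 were higher (16% of all genes tested were called, 6.36% lower and 9.67% higher). They were ETFDH (-0.82 ± 0.16 SE, adjusted p = 0.00627), DECR1 (-0.67 ± 0.17 SE, adjusted p = 0.0207), HSD17B4 (-0.67 ± 0.16 SE, adjusted p = 0.0201), SLC25A20 (-0.64 ± 0.16 SE, adjusted p = 0.0227), ETFA (-0.53 ± 0.10 SE, adjusted p = 0.00574) and ACAA2 (-0.44 ± 0.12 SE, adjusted p = 0.0339). In Hep3B, 3 members were higher in IR than in CR cells, ETFA (0.59 ± 0.10 SE, adjusted p = 0.00237), ETFDH (0.52 ± 0.16 SE, adjusted p = 0.0449) and ACAA2 (0.49 ± 0.12 SE, adjusted p = 0.0235), and 1, ACSL1, was lower (13.7% of all genes called, 6.13% higher and 7.55% lower). ETFA, ETFDH and ACAA2 were thus lower in the IR than in the CR cells of Huh7 and higher in those of Hep3B. Across 14596 genes the log2 change of IR from CR cells went with the GC content of the transcript. Spearman's rho was 0.36 in Huh7 and -0.29 in Hep3B, as a description. The transcripts of these 3 genes held 46.5%, 41.6% and 43.0% GC. No cause of the pattern was tested. With only the Huh7 libraries, 0 members were called between Huh7-IR and Huh7-CR cells, beside 194 of all genes tested. Some of the calls between IR and CR cells were lost when single libraries were left out. Such a fit leaves 1 library in a group, which by itself widens the error, so the loss does not single out a library.

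The DMSO cells were compared with the parental cells as well. No member was lower than in parental cells, as were 1.58% of all genes in Huh7 and 0.533% in Hep3B. In Huh7 DMSO cells 3 were higher (5.18% of all genes called, 3.6% higher), namely PPARA (1.84 ± 0.46 SE, adjusted p = 0.0402), ACADSB (1.48 ± 0.27 SE, adjusted p = 0.0122) and ECI2 (0.57 ± 0.14 SE, adjusted p = 0.0398). In Hep3B DMSO cells 2 were higher (1.64% of all genes called, 1.11% higher), BDH1 (1.01 ± 0.21 SE, adjusted p = 0.0337) and ACOX2 (1.12 ± 0.21 SE, adjusted p = 0.024). The median log2 change of the members was 0.24 in the DMSO cells of Huh7 and 0.13 in those of Hep3B, beside 0.05 and 0.01 over all genes. Calls in both lines were not stable when single libraries were left out. Such a fit leaves 1 library in a group, which by itself widens the error, so a lost call does not single out a library. In Hep3B edgeR called none (12 with an unadjusted p under 0.05). In the 2 Huh7 DMSO libraries PPARA stood at 20.0 and 71.3 CPM and CPT1A at 109 and 195 CPM, the higher value of each being in replicate 2, in which the hypoxia-induced genes stood at 1250 CPM, and the part of this in the values was not tested. Across 14596 genes the log2 change in DMSO cells went with the GC content of the transcript (Spearman's rho of 0.28 in Huh7 and 0.47 in Hep3B, as a description), and with a correction for it no member was called in Hep3B DMSO cells by limma (12 with an unadjusted p under 0.05), while 3 were in Huh7.

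The parental lines themselves differed in 11 of 31 members, 8 higher and 3 lower in Huh7 (50.3% of all genes called, 22.5% higher and 27.8% lower). ACAA1 was higher in Huh7 by 1.77 ± 0.22 (SE, adjusted p = 3.6e-05) on the log2 scale, SLC25A20 by 1.03 ± 0.16 (SE, adjusted p = 0.000229), CROT by 0.85 ± 0.29 (SE, adjusted p = 0.0276) and HADHA by 0.78 ± 0.12 (SE, adjusted p = 0.000228). ACOX2, CPT2, HSD17B4 and HADHB were higher by 0.36 to 0.70. PLIN2 was lower in Huh7 (-1.83 ± 0.37 SE, adjusted p = 0.00142), as were ECI2 (-1.21 ± 0.14 SE, adjusted p = 1.7e-05) and ACSL3 (-0.94 ± 0.35 SE, adjusted p = 0.0375). Without Huh7 parental 1, Huh7 parental 2 or Hep3B parental 2, 6 or 7 of the 31 were called.

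Further lists of the pathway were counted in the same way, beside 36%, 24.5%, 18.3% and 23.6% of all genes called higher and 21.5%, 16.8%, 13.7% and 15.2% called lower in IR and CR cells of Huh7 and then of Hep3B. With 5 to 17 genes tested a list, nothing particular to a list is read from its counts. Among other genes of ketone body metabolism, 8 were looked at. In IR and CR cells of Huh7 and then of Hep3B, 3, 1, 2 and 3 of the 8 were higher and 2, 1, 2 and 1 lower. OXCT1, the transferase by which tissues outside the liver use ketone bodies, rose in all 4 resistant lines. It was at 7.71 and 4.34 CPM in parental, 4.22 and 3.50 in DMSO, 50.5 and 51.8 in IR, and 34.8 and 27.3 in CR cells of Huh7. Hep3B cells held OXCT1 at 0.727 and 0.239 CPM in parental, 0.403 and 0.548 in DMSO, 6.32 and 4.26 in IR, and 4.87 and 2.84 in CR cells. In Huh7 the change was 2.94 ± 0.29 (SE, adjusted p = 5.6e-06) in IR and 2.22 ± 0.29 (SE, adjusted p = 8.2e-05) in CR cells. In Hep3B it was 2.08 ± 0.29 (SE, adjusted p = 0.00021) in IR and 1.70 ± 0.29 (SE, adjusted p = 0.000699) in CR cells. ACAT1, the mitochondrial acetoacetyl-CoA thiolase, fell in all 4, with log2 fold changes of -0.90, -0.78, -0.41 and -0.62.

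Of 13 further genes of fatty acid uptake and activation, 10 passed the filter, of which 5, 2, 2 and 0 were higher and 2, 3, 2 and 2 lower in the 4 resistant comparisons in the order above. ACSL4 fell in all 4, with log2 fold changes of -1.53, -0.92, -1.86 and -2.72. ACSL6 was at 16.8 and 25.4 CPM in Huh7 parental and 0.265 and 0.215 CPM in Huh7-IR cells (-4.13 ± 0.27 SE, adjusted p = 2.3e-07). CD36, the fatty acid translocase, rose in Huh7-IR (2.83 ± 0.28 SE, adjusted p = 5.8e-06) and Huh7-CR cells (3.14 ± 0.28 SE, adjusted p = 4.6e-06) and fell in Hep3B-IR cells (-0.81, adjusted p = 0.0416). FABP3, the binding protein of heart muscle, rose from 0.582 and 0.830 CPM in Huh7 parental to 11.1 and 3.90 in Huh7-IR (2.18, adjusted p = 0.00313) and 6.68 and 11.2 in Huh7-CR cells (2.51, adjusted p = 0.0021).

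Of 18 further mitochondrial oxidation genes, 17 passed the filter, of which 4, 4, 6 and 6 were higher and 3, 3, 1 and 1 lower. ACADL, the long-chain dehydrogenase, rose in all 4 from below 1 CPM, to 4.74 and 1.42 CPM in Huh7-IR and 4.28 and 2.19 CPM in Hep3B-IR cells (1.64, adjusted p = 0.00325, and 1.36, adjusted p = 0.0181). CRAT, the carnitine acetyltransferase, rose in both Huh7 lines (1.56 and 1.01) and ECH1 in both Hep3B lines (0.98 and 1.10). HSD17B10 fell in both Huh7 lines (-0.97 and -0.73), and SLC22A5, the carnitine transporter of the plasma membrane, rose in both Hep3B lines (0.75 and 0.57), as did the acyl-CoA thioesterase ACOT9 (0.54 and 0.52). Of 12 further peroxisomal genes, 1, 3, 1 and 2 were higher and 4, 4, 0 and 4 lower. ABCD2, a transporter of very long chains, fell in both Huh7 lines (-1.84 and -1.74). PHYH, the phytanoyl-CoA hydroxylase, rose in both Huh7 lines (0.85 and 0.86).

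The regulators and targets around PPARA were counted as well. Of 14 regulators, 5, 2, 2 and 4 were higher and 3, 2, 2 and 1 lower. PPARGC1A, the coactivator of oxidation genes, was at 10.1 and 15.4 CPM in Hep3B parental, 40.1 and 47.2 in IR and 45.3 and 75.6 in CR cells (1.72 ± 0.42 SE, adjusted p = 0.00784, and 2.14 ± 0.42 SE, adjusted p = 0.00181). It also rose in Huh7-CR cells (1.84, adjusted p = 0.00402). RXRA, the partner of PPARA, fell in Hep3B-IR (-0.83, adjusted p = 0.0142) and Hep3B-CR cells (-0.98, adjusted p = 0.00501), and rose in Huh7-IR cells (0.61, adjusted p = 0.036). PRKAA2, a catalytic subunit of the AMP-activated kinase, fell in both Huh7 lines (-1.87 and -2.0), as did PRKAA1 (-0.97 and -0.66). The deacetylase SIRT1 rose in both Huh7 lines (1.04 and 0.61) and the corepressor NCOR1 in both Hep3B lines (0.45 and 0.45). Of 10 PPARA target genes outside oxidation, 5 passed the filter, of which 3, 4, 1 and 1 were higher and 0, 0, 1 and 0 lower. PDK4, VNN1 and TXNIP rose in both Huh7 lines (1.61 and 1.15, 2.02 and 2.83, and 1.75 and 1.91), and TXNIP fell in Hep3B-IR cells to 0.990 and 0.711 CPM (-4.65 ± 0.40 SE, adjusted p = 6.2e-06).

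Of 13 genes of lipid droplets and lipolysis, 12 passed the filter, of which 3, 2, 1 and 2 were higher and 2, 2, 0 and 0 lower. PNPLA3 and DGAT2, the latter an enzyme of triglyceride synthesis, fell in both Huh7 lines (-2.37 and -2.20, and -2.83 and -1.30). MGLL, the monoacylglycerol lipase, and ABHD5, the coactivator of triglyceride lipase, rose there (1.59 and 1.49, and 0.98 and 1.08). The hormone-sensitive lipase LIPE rose in both Hep3B lines (0.47 and 0.58). Of the 11 hypoxia-induced genes, 4, 4, 2 and 2 were higher and 1, 0, 0 and 0 lower. They summed to 407 and 334 CPM in Huh7 parental and 524 to 726 in the 4 Huh7 resistant libraries. In Hep3B the sums were 277 and 273 CPM in parental and 701 to 768 in the 4 Hep3B resistant libraries. Abundant genes set most of these sums. VEGFA was at 71.3 and 57.4 CPM in Hep3B parental and 225 to 368 in Hep3B resistant libraries. SLC2A1 was at 14.0 and 19.3 CPM in Hep3B parental and 88.1 to 162 in Hep3B resistant libraries. No other gene of this list was called in the Hep3B lines.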

How the data were processed

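RNA of Huh7 and Hep3B cells was sequenced from 16 libraries (2 replicates of 8 groups), and a gene table of read counts scaled to library size (CPM) was deposited. The submitters' processing notes name STAR and hg19. According to the study's methods, the authors counted uniquely mapped reads over RefSeq mRNA exons, and the scaling of the deposited CPM to library size is read from the values. The labels name a stranded poly(A) kit and the methods a total RNA kit, so the kit and the strand setting of the counting are unclear. All CPM steps gave whole reads (100% within 0.05 reads). Replicates were grouped by their labels.

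log2(CPM + 1) values were fitted with limma 3.58.1 (R 4.3.3, mean-variance trend, all 16 libraries, 8 group means), two-sided, with Benjamini-Hochberg adjustment over the 15019 genes that reached 1 CPM in 2 or more libraries, and called at an adjusted p under 0.05. Of 26258 genes, 26111 matched a symbol. edgeR 4.0.16 (quasi-likelihood) on the recovered reads called 8619, 6417, 4831 and 5770 genes in IR and CR cells of Huh7 and then of Hep3B, and limma 8635, 6207, 4811 and 5820. Alternatives were DESeq2 1.42.0, TMM factors, quantile normalization, pseudocounts of 0.25 and 4 CPM, no filter and one of 5 CPM, only the libraries of the line, the study's thresholds, DMSO cells as reference, a replicate block, leaving out each library and, chosen after seeing the data, a GC correction (lowess span of 0.3). The scripts were tested on simulated data. Gene spans and exon lengths are from the GENCODE annotation on GRCh37.

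The members and lists were chosen with earlier results of these data known. Values in every library are given for 9 listed members and for members called the same way in all 4 resistant comparisons or in the difference between the lines. Other members are given by counts, ranges and examples. Genes of further lists are named where called alike in IR and CR cells of a line (at most 6 a list), and OXCT1 and PPARGC1A always. Some genes of these lists are counted but not reported here.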

Additional observations from a re-analysis of the deposited data

Results flagged for a closer look

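The change of IR and CR cells from parental cells differed between Huh7 and Hep3B for 13 of the 31 genes by an interaction contrast in limma (adjusted p under 0.05, where 31.6% of all genes were called). With Huh7 minus Hep3B, the log2 differences were -2.43 for CPT1A, -1.92 for ETFB, -1.35 for DECR1, -1.28 for ACOX2, -1.11 for HSD17B4, -0.98 for ACSL1, -0.91 for ETFA, -0.85 for ABCD3, -0.82 for CPT2, -0.65 for ACAA2, -0.64 for HADHA, -0.57 for ETFDH and 1.03 for ACAA1. As each line is treated as 1 derivation of IR and 1 of CR cells, the lines and their derivations cannot be told apart.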

How the results depend on the processing

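A turn of direction was counted only where the reported or the alternative value was called, so uncalled values may have changed sign. Of 5281 values of single members under the alternatives, 4910 kept their side of the threshold, 207 lost a call, 163 gained one and 1 turned its direction. The last was the difference between the lines in ECI2, at -0.82 (adjusted p = 0.00314) with DMSO cells as reference and 0.07 (adjusted p = 0.784) with parental cells. Of the counts of members called, 141 stayed within 1.5 times the reported one and 30 did not. The count in Huh7 DMSO cells, 3, was 0 with only the Huh7 libraries and 6 with the study's thresholds. That in Hep3B DMSO cells, 2, was 0 with edgeR, quantile normalization, a pseudocount of 0.25 CPM, the filter of 5 CPM or the GC correction (10 to 12 at an unadjusted p under 0.05), 5 with only the Hep3B libraries and 9 with the study's thresholds. Between Huh7-IR and Huh7-CR cells, 6, it was 12 with DESeq2 and 0 with only the Huh7 libraries (8 at an unadjusted p under 0.05), and between Hep3B-IR and Hep3B-CR cells, 4, it was 8 with only the Hep3B libraries. The calls over all genes tested moved too. In Huh7 DMSO cells they were 778, with 29 for only the Huh7 libraries and 2171 for the study's thresholds. In Hep3B DMSO cells they were 247. The fits without a member call there had 77, 294, 174, 147 and 253, in the order above. Only the Hep3B libraries gave 671 and the study's thresholds 1210. Between Huh7-IR and Huh7-CR cells 2407 of all genes were called, with 3042 for DESeq2 and 194 for only the Huh7 libraries. Between Hep3B-IR and Hep3B-CR cells 2054 were called, and 3941 with only the Hep3B libraries. The cause of these shifts was not tested. When each library was left out in turn, the counts ranged from 19 to 20 in Huh7-IR, 11 to 12 in Huh7-CR, 4 to 8 in Hep3B-IR, 10 to 15 in Hep3B-CR, 0 to 7 in Huh7 DMSO and 0 to 1 in Hep3B DMSO cells, 6 to 8 between the parental lines, 0 to 7 between Huh7-IR and Huh7-CR, 2 to 3 between Hep3B-IR and Hep3B-CR, and 9 to 14 for the difference between the lines. Leaving out a library leaves 1 in its group, which by itself widens the error, so lost calls do not single out a library. Scaling moved the share of higher calls over all genes in Huh7-IR cells from 62.5% to 51.9% with TMM factors and 49.4% with quantile normalization. The labels do not say that a replicate number marks a shared batch. The correlation of replicate differences between groups ranged from -0.22 to 0.44, and was 0.44 between Huh7-IR and Huh7-CR, 0.41 between the DMSO groups and 0.21 to 0.26 among Hep3B parental, IR and CR cells, so a partial pairing cannot be told from these data. With the number as a replicate block the counts were 22, 14, 12 and 17 in IR and CR cells of Huh7 and then of Hep3B, 3 and 3 in Huh7 and Hep3B DMSO cells, 14 between the parental lines, 7 and 5 between IR and CR in Huh7 and Hep3B, and 13 for the difference between the lines. Over all genes the block gave 8756, 6292, 4942 and 5941 calls in these IR and CR cells, against 8635, 6207, 4811 and 5820 without it. In Huh7 and Hep3B DMSO cells it gave 930 and 309, and between the parental lines 7652. Between IR and CR in Huh7 and Hep3B it gave 2494 and 2186, and for the difference between the lines 4860. Depth limits the lowest values, such as those of FABP1 (2 and 4 reads) and ACOX2 (3 reads in both libraries) in Huh7-IR cells.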
